A study of Mus musculus with 116 samples.

Results

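Reads that join a zinc-finger nuclease (ZFN) break on mouse chromosome 6 to another chromosome were examined, leaving out 3 sites at which such reads pile up. Of 125900 rows in the 18 ZFN junction lists, 120606 lay on chromosome 6, 431 lay within 500 bp of chr8:126056085, chr14:74846194 or chr4:137300025, and the remaining 4863 are the members described here, 3.86% of all rows. Each row is 1 read. Its bait is the sequence beside the break, and its prey is the sequence to which the bait was joined. Members were chosen by the position of the prey in these same lists, so their being off chromosome 6 is no result. The farthest excluded row lay 14 bp from its site, and the nearest member lay 65805 bp from any of the 3.

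All cells were v-Abl-transformed mouse pro-B cells, B-lineage precursors immortalised with the v-Abl oncogene, carrying an Emu-Bcl2 transgene that protects arrested cells from death. They were held in G1 with STI-571, a v-Abl kinase inhibitor, at 3 µM for 96 h, and the nuclease ZFN-Eb was induced with doxycycline at 2 µg/ml. The 6 groups of 3 libraries were clone D, Lig4-/-; clone D, Lig4-/- with Lig4 added back; clones D1 and D2, Lig4-/-Ku70-/-; and the same D1 and D2 cells with Ku70 added back. Every group is a single clone, all but the Lig4 add-back lack Lig4, and no wild-type ZFN library was analysed here. Genotypes rest on the labels, which do not say that replicates were separate cultures, so p-values measure the spread between these libraries. Each library is given per 600000 raw reads, and its list held 161 to 17254 junctions.

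Classical non-homologous end joining ligates broken ends with Lig4, after the Ku70/Ku80 ring has bound them. Cells without it still join ends by alternative routes, which often use short repeats shared by both ends (microhomology) and which can link different chromosomes. Pro-B cells also hold natural break sites: the RAG recombinase cuts antigen receptor loci beside V, D and J segments, at a heptamer and nonamer signal. In v-Abl lines, STI-571 is known to switch on RAG. The commonest bait end in the Lig4 add-back libraries was base 41554976 of chromosome 6 (mm10), inside the annotated Tcrb locus (chr6:40891296-41558371). Tcrb and the kappa locus Igk both lie on chromosome 6 and so cannot contribute members.

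The members were of 2 kinds, told apart by the bases of the prey. In 3708 members at least 75% of the prey bases were G, in 1143 under 40% were, and only 12 lay between. The members with at least 50% G, called G-rich below, numbered 3714 (76.4%), and the other 1149 (23.6%) had a median of 19.4% G. The 50% limit was set after these values had been seen. For most members the data therefore go against the name translocation, since the prey holds almost no base but G, and the comparisons between groups are given with and without the G-rich rows.

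**Figure D1:**
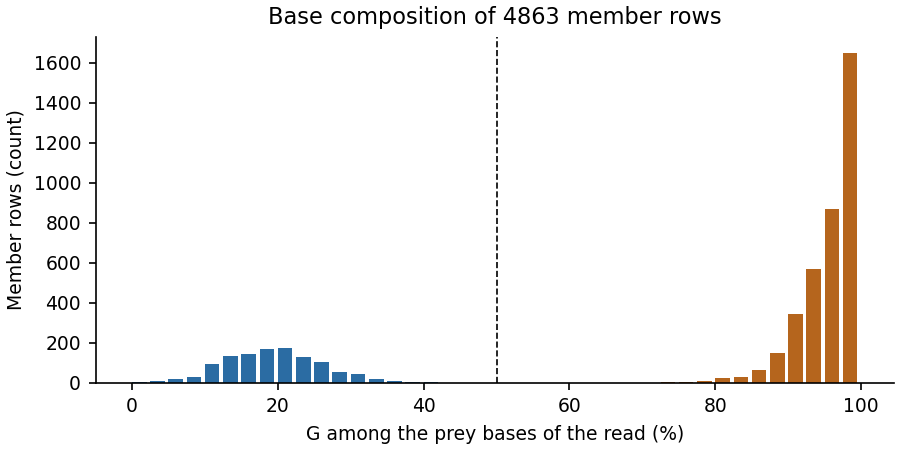
Number of member rows (y axis) by the percent of G among the prey bases of the read (x axis, bins of 2.5 points); the dashed line is at 50% and colours mark its sides. The 3714 rows on the right and the 1149 on the left leave a nearly empty range between 40% and 75%.

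The G-rich junctions printed next are shown because they come from the leading 3 recurrent sites of all members. Each run holds 30 bases of bait and any unaligned bases in lower case, then the first 26 prey bases in capitals. They come from replicate 1 of clone D1 with Ku70 and their prey lie at chr4:89217113-89217138 (forward strand), chr8:118847232-118847257 (reverse) and chr5:104072338-104072363 (reverse), all mm10.
chr4 site: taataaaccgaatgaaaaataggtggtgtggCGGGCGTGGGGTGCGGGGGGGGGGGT
chr8 site: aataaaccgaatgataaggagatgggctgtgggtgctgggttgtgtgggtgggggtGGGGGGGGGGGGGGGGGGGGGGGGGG
chr5 site: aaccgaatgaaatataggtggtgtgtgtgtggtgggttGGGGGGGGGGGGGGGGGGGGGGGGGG
The printed chr8 and chr5 prey are G throughout, and the bases before them grow richer in G as well, while the chr4 prey holds other bases among its Gs.

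G-rich members also differed from the others in read length and junction structure. Their reads had a median length of 151 bases against 200 for the other members, and the column for read length was empty in 3713 of 3714 against 61 of 1149. The last 20 bases of the read, which overlap the prey bases used for the limit, were all G in 97.5% of them and in 0 of the other 1149 members. Unaligned bases separated bait and prey in 89.4%, with a median of 11 such bases, against 5.40% with a median of 3 in the other members. An overlap of at least 2 bp was found in 3.34% of G-rich members and in 36.3% of the others. All 431 rows at the 3 excluded sites were G-rich too, and 211 of the 120606 rows on chromosome 6 were (0.175%).

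The number of G-rich members differed by sequencing run, taken here as field 3 of the read names, split at colons. Runs 1 and 2 hold 1 clone each, so run and clone can be told apart only between runs 3 and 4, both of D2. In run 1 (both clone D groups) each library held 0 to 6, in run 2 (both D1 groups) 144 to 176, in run 3 (replicate 1 of both D2 groups) 1120 and 1198, and in run 4 (replicates 2 and 3 of both D2 groups) 90 to 110. Within runs 2, 3 and 4, libraries with and without Ku70 held similar numbers: 27.4 ± 2.66 per 100000 raw reads in D1 Lig4-/-Ku70-/- and 27.2 ± 2.83 in D1 with Ku70 (SD, n = 3). Replicate 1 of both D2 groups therefore stands apart from the other libraries. All 18 ZFN libraries were read on a Nextseq, per the labels, an instrument that is known to call a cycle without signal as G. In the 54 Cas9 lists of the same series, G-rich rows made up 0.229% of rows off the bait chromosome in the 45 libraries read on a Miseq and 2.23% in the 9 read on a Nextseq. Of the 245 recurrent ZFN sites made only of G-rich rows, G-rich Cas9 rows fell within 50 bp of 101 in the Nextseq libraries and of 0 in the Miseq libraries. There were 391 such Cas9 rows on the Nextseq and only 59 on the Miseq. The part of instrument and run in the G-rich rows was not tested.

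**Figure D2:**
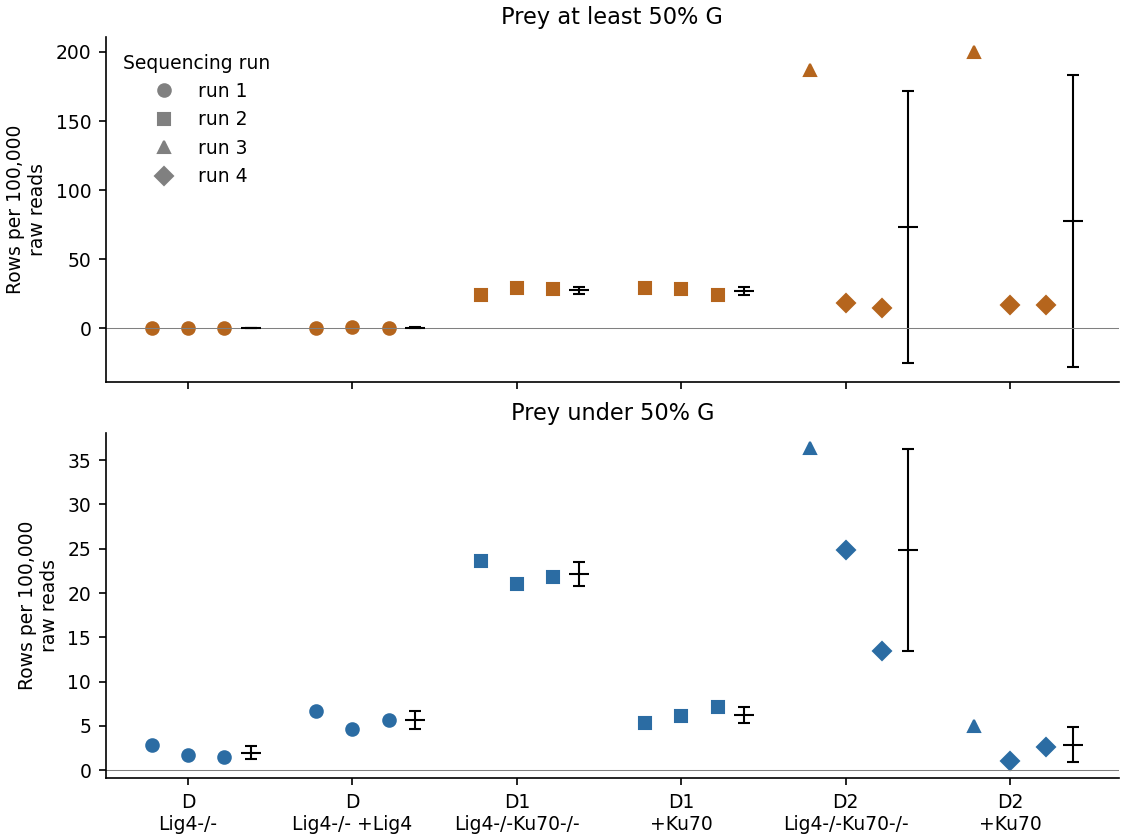
Members per 100000 raw reads (y axis) in each of the 18 libraries, for G-rich prey (top) and other prey (bottom), with marker shape for the sequencing run and the mean ± SD of each group beside its points. G-rich rows differ by run, with run 3 at 187 and 200 (199.67), and run and clone can be told apart only within D2. The other rows are highest in the Lig4-/-Ku70-/- groups of D1 and D2 and lower after Ku70 was added.

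Counted as the rule has them, members were fewest in clone D. The Lig4-/- libraries held 18, 10 and 10 members, and those with Lig4 held 42, 34 and 35. In D1 the Lig4-/-Ku70-/- libraries held 288, 301 and 303 and those with Ku70 held 208, 207 and 187. In D2 the Lig4-/-Ku70-/- libraries held 1338, 259 and 171 and those with Ku70 held 1228, 107 and 117. On the log2 scale (members plus 0.5 per 100000 raw reads) D1 exceeded D Lig4-/- by 4.55 and D2 did by 4.94, without overlap, but clones D1 and D2 share no run with D, so a difference of genotype and one of run cannot be told apart. The Lig4 add-back exceeded Lig4-/- by 1.56, also without overlap and in 1 run. With Ku70 the log2 level differed by -0.57 in D1 without overlap, while in D2 the groups overlapped (difference of -0.65; -0.12 within run 3 and -0.91 within run 4).

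No comparison of 3 against 3 libraries can give an exact permutation p under 0.1, and the 4 non-overlapping abundance comparisons each gave p = 0.1 (two-sided exact permutation test; adjusted p = 0.195 by Benjamini-Hochberg over 39 tests). With labels permuted within D1 and within D2, which allows p = 0.005 at the least, the mean Ku70 difference of -0.61 gave p = 0.395 (exact permutation, adjusted p = 0.503). That test takes no account of the runs within D2, where replicate 1 of both groups shares run 3. With the replicate number as a block the same -0.61 passed the unadjusted threshold (exact sign-flip permutation p = 0.0312, the smallest that 6 pairs allow). Same-numbered libraries showed no steady pairing there, with correlations of members per chromosome from -0.273 to 0.177 in D1 and -0.257 to 0.471 in D2. Without the pair of libraries in run 3 the difference was -0.74, which also passed (exact permutation p = 0.0167). Leaving out replicate 1 of D2 with Ku70 alone gave -1.18, and replicate 1 of D2 Lig4-/-Ku70-/- alone gave -0.16. Without the G-rich rows the difference was -2.53.

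The same comparison without G-rich rows separated the groups widely. The Lig4-/-Ku70-/- libraries held 142, 126 and 131 such members in D1 and 218, 149 and 81 in D2. Those with Ku70 held 32, 37 and 43 in D1 and 30, 6 and 16 in D2. Neither clone's groups overlapped, and the mean log2 level was 3.55-fold lower with Ku70 in D1 and 9.34-fold lower in D2. Clone D held 17, 10 and 9 in Lig4-/- and 40, 28 and 34 with Lig4, a 2.84-fold difference in the mean log2 level. These values carry no test, since the limit on G was chosen from the data.

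Relative to all junctions of a library, members made up a larger share with Ku70. They were 1.74% ± 0.0601 of junctions in D1 Lig4-/-Ku70-/- and 20.2% ± 2.62 in D1 with Ku70, and 4.05% ± 3.29 and 61.0% ± 10.1 in D2 (SD, n = 3 each). The mean difference over both clones was 37.7 percentage points, with p = 0.005, the smallest the design allows (exact permutation within clones, adjusted p = 0.0539), so it missed the threshold after adjustment. The number of chromosome 6 junctions moved too, from 16550 to 16956 per library in D1 to 642 to 990 with Ku70, and from 5983 to 15985 in D2 to 32 to 832. Without G-rich rows the shares were 0.777% ± 0.0408 and 3.84% ± 1.24 in D1 and 1.17% ± 0.218 and 4.79% ± 4.54 in D2, and in neither clone did the groups overlap. In D2 they were barely parted, with 1.36% with Ku70 against 1.27% without in run 3 and up to 1.31% without in run 4. The other D2 libraries with Ku70, at 3.06% and 9.94%, rest on 6 and 16 such rows of 196 and 161 junctions. In clone D the share was 2.63% ± 2.07 in Lig4-/- and 0.368% ± 0.0539 with Lig4 when G-rich rows were left out, without overlap.

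Antigen receptor loci held many of the members that were not G-rich. The loci lambda light chain (Igl), T cell receptor alpha with the delta locus nested inside it (Tra/Trd), gamma (Trg) and heavy chain (Igh) together held 142 of the 1149 (12.4%, Wilson 95% interval 10.6% to 14.4%, counting error only), and 0 of the 3714 G-rich members, which allows a share of up to 0.0808%. Tra/Trd held 56, Igl 43, Trg 38 and Igh 5. Of the 142, 127 (89.4%) lay within 100 bp of an annotated V, D, J or C segment. The share of all positions that these loci and the 100 bp windows cover is not given here, so neither percentage has a background beside it.

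Prey from 3 segments of these loci are shown because they begin at a recombination signal; the capitals mark its heptamer CACAGTG, and each run is 60 bases. They were read at Trgj2 (chr13:19311305-19311364, D1 Lig4-/-Ku70-/- replicate 1), Trdd2 (chr14:54122241-54122300, D2 Lig4-/-Ku70-/- replicate 2) and Iglj3 (chr16:19067079-19067138, D1 Lig4-/-Ku70-/- replicate 3), all forward strand, mm10.
Trgj2: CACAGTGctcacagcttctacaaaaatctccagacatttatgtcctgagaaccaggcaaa
Trdd2: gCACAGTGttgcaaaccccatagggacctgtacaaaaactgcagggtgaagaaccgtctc
Iglj3: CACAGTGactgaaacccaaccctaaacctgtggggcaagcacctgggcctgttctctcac
The letters CACAGTG, or CACTGTG for the other strand, stood in the first 30 prey bases of 12 of 142 rows in receptor loci (8.45%) and of 6 of the 1007 other rows outside them (0.596%). They stood in the first 30 bases of 0.548% of 32851 RefSeq promoter windows (GRCm38.p6). In the receptor loci 7 prey began with CACAGTG itself.

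The rows clustered at few segments. Trgj2, a gamma joining segment (chr13:19311245-19311304), had 17 rows in 6 libraries: 13 in forward orientation, running towards higher coordinates, all from base 19311304 on, and 4 in reverse orientation, all up to base 19311301. At Iglj3, a lambda joining segment (chr16:19067041-19067078), the 7 reverse rows of its site ended at base 19067075 or below and the 7 forward rows began at base 19067079 or above. The variable segment Trgv2 (chr13:19336573-19337026) had 9 forward and 5 reverse rows at its site, parted in the same way. Trdd2, a delta diversity segment, had 16 rows, all forward. Trdd1 was the nearest segment to 11 rows, of which 9, all reverse, lay at its site (chr14:54113403-54113461). Trav15-1-dv6-1, a variable segment used by the alpha and delta chains, had 17 rows in 5 libraries that were not parted by orientation. Its 14 forward rows lay from base 53559839 to 53560306 and its 3 reverse rows from 53560224 to 53560240. In the lambda locus, Iglv1 was the nearest segment to 13 rows in 9 libraries. Of these, 10 rows in 7 libraries lay at its site (chr16:19084985-19085034) and 3 at another site, 2558 bp from the segment. Iglj1 had 7 rows and Iglj2 had 4.

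The receptor rows were found mainly in the Lig4-/-Ku70-/- libraries. D1 held 21, 20 and 29 rows and D2 held 25, 25 and 9, against 2, 0 and 0 in D1 with Ku70 and 1, 0 and 0 in D2 with Ku70. The groups with and without Ku70 did not overlap in either clone. As a share of the members that were not G-rich, these loci made up 17.6% ± 3.97 in D1 and 13.1% ± 3.17 in D2 (SD, n = 3), and 3 of 164 rows over both Ku70 add-back groups (1.83%, Wilson 0.624% to 5.24%). All 3 rows with Ku70 were at Trg. Clone D held 1 row of 36 in Lig4-/- and 9 of 102 with Lig4 (8.82%, Wilson 4.71% to 15.9%), 6 of these in Igl and 3 in Tra/Trd. The 1 row in Lig4-/- is 2.78% (Wilson 0.492% to 14.2%). That interval overlaps those of both add-backs and of D1 (14.1% to 21.6%) and D2 (10.3% to 16.6%) Lig4-/-Ku70-/-, which is no test of a difference. By library the share was 0%, 0% and 11.1% in Lig4-/-, over 17, 10 and 9 rows. It was 14.8% to 22.1% in D1, without overlap, and 11.1% to 16.8% in D2, which met the highest Lig4-/- library. The difference from Lig4-/- was not tested, and D shares no run with D1 or D2.

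**Figure D3:**
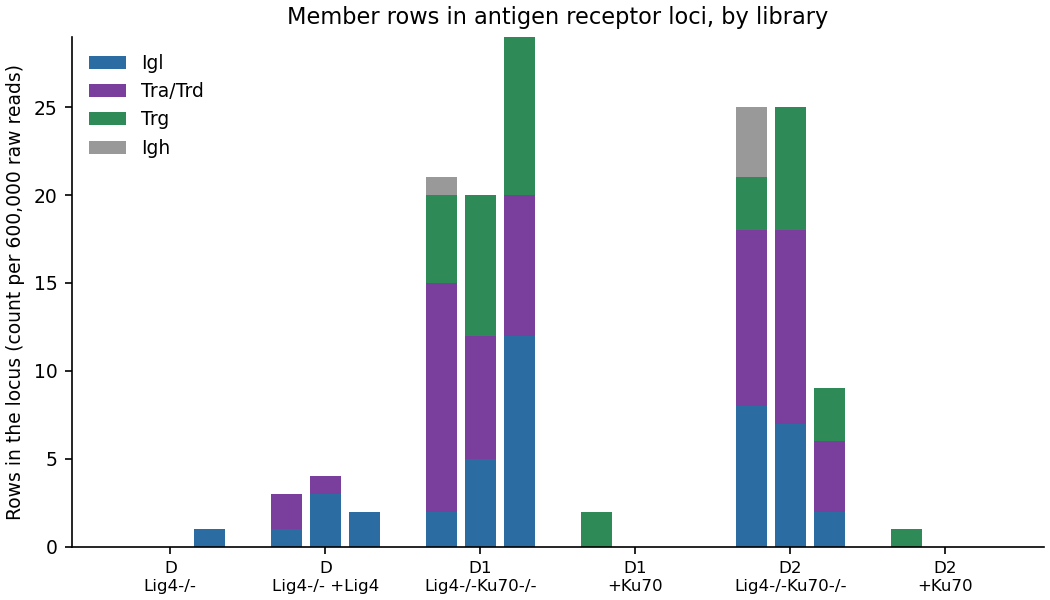
Member rows in 4 antigen receptor loci (stacked colours, y axis in rows per library of 600000 raw reads) for the 3 replicates of each group. The 6 Lig4-/-Ku70-/- libraries hold 9 to 29 rows, those with Ku70 hold 0 to 2, and those of clone D hold 0 to 4.

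Direct joins made up a larger share in receptor loci than elsewhere, as a description without a test. Over both Lig4-/-Ku70-/- groups, 76 of 129 receptor rows had neither overlap nor inserted bases (58.9%, Wilson 50.3% to 67.0%), against 309 of 718 elsewhere (43.0%, 39.5% to 46.7%). An overlap of 2 bp or more was found in 20 of 129 (15.5%, 10.3% to 22.7%) and in 221 of 718 (30.8%, 27.5% to 34.3%). In each of the 6 libraries the receptor rows had the lower microhomology share, 10.3% to 25.0% against 26.4% to 34.7%. The intervals cover counting error only.

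Over all members, receptor loci included, recurrence depended on base composition. Members within 500 bp of each other were joined into 1662 sites, and 262 sites had rows in at least 3 libraries with at least 3 distinct junctions. Of these, 245 held G-rich rows alone, and 251 held a single orientation. The 10 leading sites were all of this kind. They lay at chr4:89217110-89217126 (42 rows in 12 libraries, pseudogene Tgif2-ps1), chr8:118847257-118847262 (40 in 12, in the cadherin gene Cdh13), chr5:104072363-104072370 (57 in 11, Gm17660), chr14:60697747-60697764 (54 in 11, Spata13) and chr17:3379850-3379863 (44 in 11, Tiam2). The others lay at chr12:80553479-80553484 (49 in 11, Galnt16), chr16:93686755-93686765 (33 in 11, Cbr3), chr2:40480420-40480441 (24 in 11, no gene), chr1:58724588-58724600 (15 in 11, in the apoptosis regulator gene Cflar) and chr7:90442010-90442026 (66 in 10, no gene). In every one of these 10 all rows had the same orientation.

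Without G-rich rows there were 992 sites, of which 956 held a single row, and 17 met the same limits on libraries and junctions; this list was made after the values had been seen. Of the 17, 10 sites, with 111 of the 154 rows, were in receptor loci. The other 7 were at Gtf3c4, which encodes a subunit of transcription factor TFIIIC (chr2:28835270-28835333, 10 rows in 5 libraries), Narf (chr11:121237706-121237749, 7 in 6), the histone demethylase gene Kdm4b (chr17:56349264-56349320, 7 in 5), Spata13 (chr14:60721399-60721421, 4 in 4), Nfkb1, which encodes an NF-kappaB subunit (chr3:135629173-135629197, 4 in 4), Prepl (chr17:85090221-85090250, 4 in 3), and a region without a gene (chr2:98666322-98667270, 7 in 6). The Spata13 rows lay at another position in that gene than its G-rich site.

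At Gtf3c4, Narf, Kdm4b, Spata13 and Nfkb1 rows came in both orientations, and every reverse row lay below every forward row. Forward and reverse rows numbered 3 and 7 at Gtf3c4, 5 and 2 at Narf and 4 and 3 at Kdm4b. They numbered only 1 and 3 at Spata13 and 3 and 1 at Nfkb1. The region on chromosome 2 without a gene had 4 forward and 3 reverse rows, not parted in this way. The gap between reverse and forward rows was 9 bases at Gtf3c4, 3 at Narf, 6 at Kdm4b, 11 at Spata13 and 14 at Nfkb1. Prey from both sides of the leading 3 are shown with the first 10 bases at the junction in capitals. The reverse reads are at chr2:28835256-28835295, chr17:56349242-56349281 and chr11:121237682-121237721, and the forward reads at chr2:28835305-28835344, chr17:56349288-56349327 and chr11:121237726-121237765 (mm10).
Gtf3c4 reverse: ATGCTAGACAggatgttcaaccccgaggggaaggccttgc
Gtf3c4 forward: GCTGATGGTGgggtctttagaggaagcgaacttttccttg
Kdm4b reverse: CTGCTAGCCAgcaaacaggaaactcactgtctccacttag
Kdm4b forward: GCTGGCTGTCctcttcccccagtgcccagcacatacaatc
Narf reverse: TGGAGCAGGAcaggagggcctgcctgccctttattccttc
Narf forward: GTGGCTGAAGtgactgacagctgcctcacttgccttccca
All 6 come from Lig4-/-Ku70-/- libraries and show ordinary mixed sequence, unlike the G-rich prey.

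The 6 sites at genes held 36 rows, 16 in D1 Lig4-/-Ku70-/-, 17 in D2 Lig4-/-Ku70-/-, 3 with Lig4, and 0 in Lig4-/- and both Ku70 add-back groups. Of all 1149 members that were not G-rich, both Lig4-/-Ku70-/- groups together held 847. The Ku70 add-back groups held 164, the Lig4 add-back 102 and Lig4-/- 36. Sites were kept for rows in at least 3 libraries, which favours the libraries with most rows, so the split is no result about genotype. The 54 Cas9 lists held 42837 rows off the bait chromosome that were not G-rich, in which 3 rows would be 0.00700%. None of these lay within 500 bp of any of the 6 sites. The region on chromosome 2 without a gene had 39 such rows in 22 Cas9 libraries. Of the 10 receptor sites 9 had Cas9 rows, from 9 at Trav15-1-dv6-1 to 73 at Iglv1.

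Outside the receptor loci the members that were not G-rich were spread over every chromosome analysed. Per 10 Mb up to the last annotated gene, they ran from 2.66 on chromosome 13 and 2.70 on X to 5.38 on chromosome 3. With receptor rows included, chromosomes 14 (8.42), 16 (8.05) and 13 (5.82) were the highest. G-rich rows ran from 4.98 per 10 Mb on X to 28.3 on chromosome 10. Of the members that were not G-rich, 50.5% were in forward orientation. In the mitochondrial genome lay 10 of these rows and on Y 2.

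**Figure D4:**
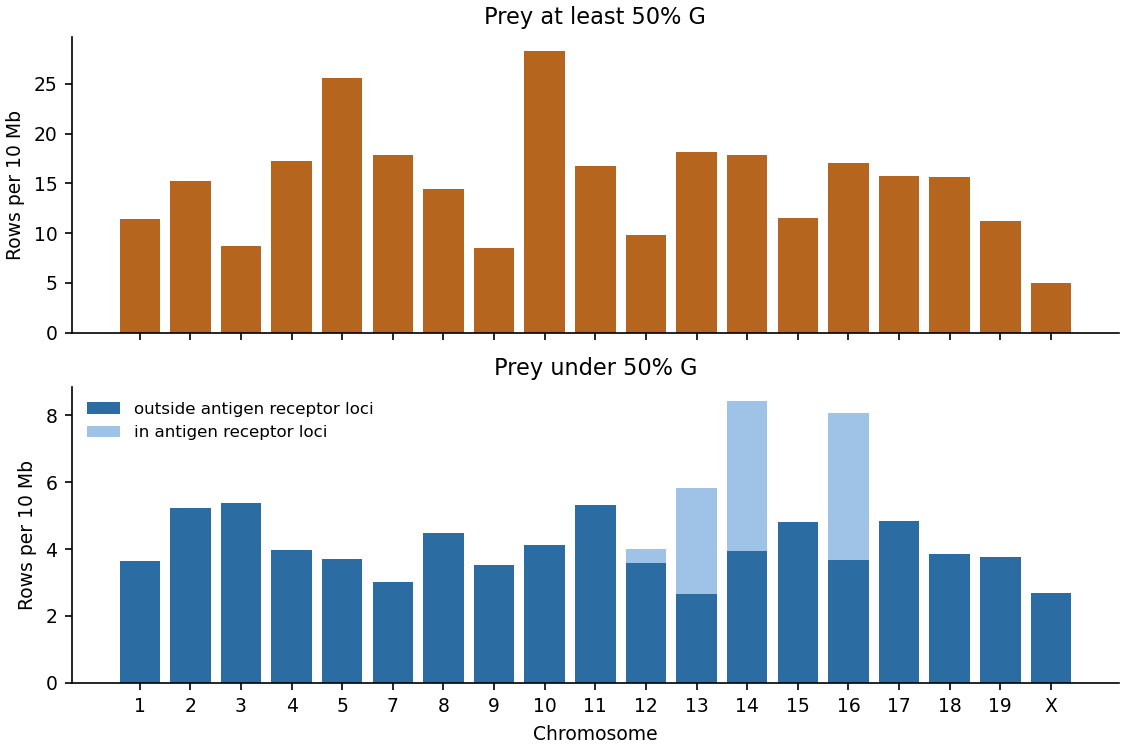
Member rows per 10 Mb of chromosome up to the last annotated gene (y axis) for each chromosome other than 6 (x axis), G-rich prey above and other prey below, all 18 libraries summed. The lower bars stand between 2.66 and 5.38 outside receptor loci, and those loci add the pale segments on chromosomes 12, 13, 14 and 16.

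Members that were not G-rich lay inside an annotated gene in 59.8% and within 2 kb of an annotated gene start in 6.70%. Annotated genes cover 47.0% of the same chromosomes, and the 2 kb windows cover 4.06%. The receptor loci are annotated as gene spans, and outside them 545 of 1007 rows lay in a gene (54.1%). Protein-coding genes held 41.7% of all 1149 rows and 47.6% of those outside receptor loci, and cover 39.0%. G-rich members lay in genes in 54.6% and near starts in 10.6%. The gene share of all members was 44.4% ± 13.9 in Lig4-/-, 53.8% ± 3.60 with Lig4, 57.4% ± 1.73 in D1, 57.8% ± 5.41 in D1 with Ku70, 58.3% ± 4.38 in D2 and 53.7% ± 2.40 in D2 with Ku70 (SD, n = 3 each). Over all members the groups overlapped in every comparison, and the mean Ku70 difference was -2.12 points (exact permutation within clones, p = 0.375, adjusted p = 0.503). Without G-rich rows the gene share was 43.6% ± 10.6 in Lig4-/-, 52.6% ± 2.51 with Lig4, 61.2% ± 1.16 in D1, 52.9% ± 16.4 in D1 with Ku70, 61.1% ± 5.88 in D2 and 55.4% ± 21.7 in D2 with Ku70. Of these, D1 Lig4-/-Ku70-/- (59.9% to 61.9%) did not overlap with D Lig4-/- (35.3% to 55.6%, over 9 to 17 rows a library), and the other groups compared did. The 10 genes with members in most libraries were Cdh13, Tgif2-ps1, Spata13, Gm17660, Tiam2, Galnt16, Cbr3, Cflar, Igl and Mylip, and in all of them but Igl most rows were G-rich. Igl had 43 rows in 10 libraries, none of them G-rich.

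Other genes of the B lineage and of the cell model had few or no members. Among B-lineage and leukaemia genes, Runx1 had 1 row in D2 Lig4-/-Ku70-/- and Aff3 had 1 with Lig4. Pax5, Ebf1, Ikzf1, Ikzf3, Bach2, Cd79a, Cd79b, Vpreb1, Igll1, Blnk, Myc and Pvt1 had 0; Foxp1 and Etv6 lie on chromosome 6 and could have none. The recombinase genes Rag1 and Rag2 and the genes Bcl2, Abl1, Lig4 and Xrcc6 (Ku70) also had 0. A count of 0 among 1149 rows allows a share of up to 0.261%. Outside receptor loci, members that were not G-rich ran at 2.66 to 5.38 rows per 10 Mb. Gene spans this short would hold few rows or none at that level, so the counts do not show that members avoid these genes.

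Microhomology of the members depended on which rows were counted. Over all members, an overlap of at least 2 bp was found in 60.0% ± 17.3 in Lig4-/-, 35.7% ± 4.24 with Lig4, 14.4% ± 2.00 in D1, 16.4% ± 4.68 in D1 with Ku70, 14.7% ± 7.22 in D2 and 9.99% ± 6.45 in D2 with Ku70 (SD, n = 3 each). D1 and D2 Lig4-/-Ku70-/- did not overlap with D Lig4-/- (each p = 0.1, two-sided exact permutation, adjusted p = 0.195). The mean Ku70 difference was -1.33 points (exact permutation within clones, p = 0.69, adjusted p = 0.769).

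Leaving out G-rich rows turned that Ku70 difference. In D1 the microhomology share was 31.7%, 27.0% and 29.0% without Ku70 and 65.6%, 75.7% and 76.7% with it. In D2 it was 24.8%, 30.9% and 29.6% without and 46.7%, 66.7% and 87.5% with it, the last 3 over 30, 6 and 16 rows. The groups did not overlap in either clone, and the means with Ku70 stood 43.5 and 38.5 points higher. Lig4-/- libraries had 52.9%, 50.0% and 88.9% over 17, 10 and 9 rows, and those with Lig4 had 42.5%, 39.3% and 35.3%, without overlap. Overlaps of 8 bp or more were found in 8 of 36 rows in Lig4-/- (22.2%), 11 of 112 in D1 with Ku70 (9.82%) and 9 of 52 in D2 with Ku70 (17.3%), but in 7 of 399 in D1 (1.75%) and 2 of 448 in D2 (0.446%) without Ku70 and in 3 of 102 with Lig4 (2.94%). The longest was 21 bp. Joins with neither overlap nor insertion made up 44.5% ± 3.20 in D1, 44.6% ± 6.58 in D2, 15.0% ± 8.66 in D1 with Ku70 and 24.2% ± 10.6 in D2 with Ku70 (SD, n = 3 each). The higher microhomology share with Ku70 is not a higher count. Overlaps of 2 to 3 bp numbered 67 in D1 and 36 with Ku70, and 88 and 14 in D2. Overlaps of 4 to 7 bp numbered 43 and 35 in D1 and 34 and 9 in D2. Only those of 8 bp or more were more numerous with Ku70. Joins with neither overlap nor insertion numbered 177 and 16 in D1 and 208 and 12 in D2.

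**Figure D5:**
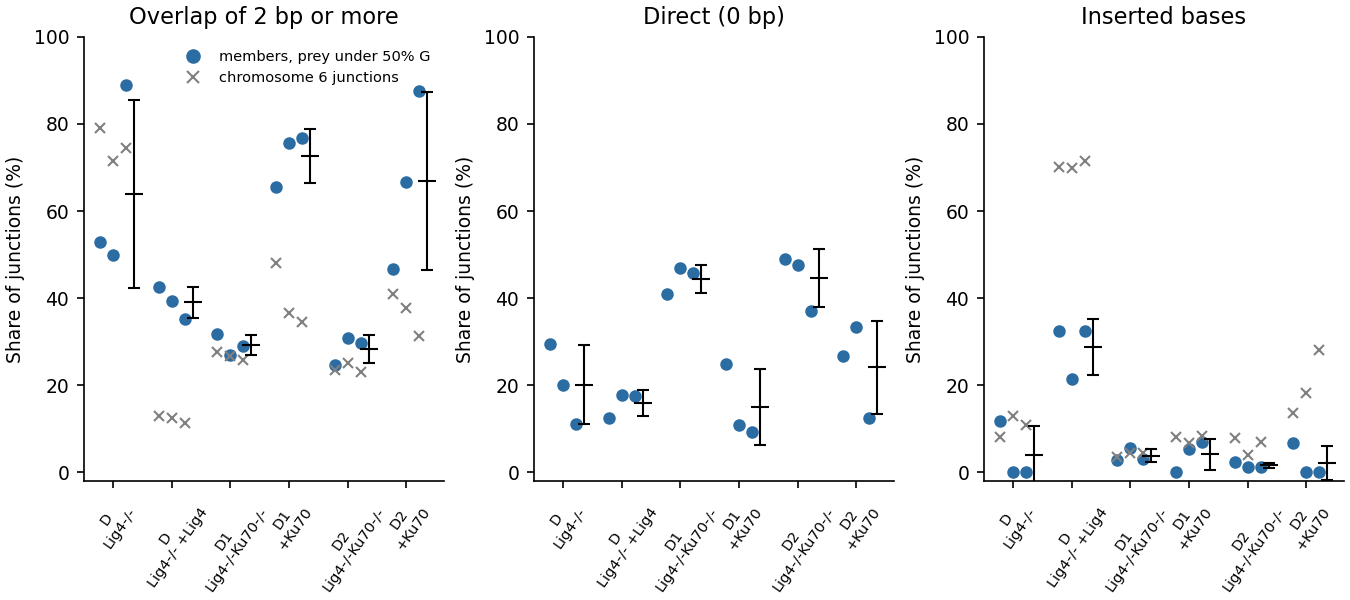
Share of junctions (y axis, %) with an overlap of 2 bp or more, with neither overlap nor insertion, and with inserted bases, in members that are not G-rich (blue points, 3 libraries a group, black mean ± SD) and, in the first and last panels, in chromosome 6 junctions (grey crosses). The microhomology share is 46.7% to 87.5% in the Ku70 add-back libraries against 24.8% to 31.7% without Ku70, and inserted bases are commonest with Lig4.

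Inserted bases also depended on which rows were counted. Over all members the insertion share was 52.4% ± 4.48 in D1, 74.5% ± 2.49 in D1 with Ku70, 53.0% ± 19.7 in D2, 81.0% ± 8.13 in D2 with Ku70, 8.89% ± 8.39 in Lig4-/- and 35.1% ± 0.734 with Lig4 (SD, n = 3 each). The mean Ku70 difference was 25.1 points (exact permutation within clones, p = 0.01, adjusted p = 0.078). Without G-rich rows the share was 3.81% ± 1.52, 4.13% ± 3.66, 1.62% ± 0.583 and 2.22% ± 3.85 in the same first 4 groups, which overlapped within each clone. With Lig4 it was 32.5%, 21.4% and 32.4%, above the 11.8%, 0% and 0% of Lig4-/-. In the Lig4 add-back 19 of 102 rows had 1 to 3 inserted bases and 11 had 4 or more.

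Members were also set against other junctions of the same library. Against chromosome 6 junctions, the members' microhomology share was lower in 14 of 18 libraries (mean difference of -10.5 points, two-sided exact sign-flip permutation p = 0.0339, adjusted p = 0.195) and their insertion share higher in 13 of 18 (30.9 points, exact permutation p = 0.00552, adjusted p = 0.0539). The microhomology difference turned to 10.3 points, past the unadjusted threshold, with an overlap minimum of 4 bp (exact permutation p = 0.000679), and to 1.21 and 1.25 points when distinct junctions were counted once and when recurrent sites were left out. Without recurrent sites the insertion difference was 10.9 points (exact permutation p = 0.163). Without G-rich rows both turned, to 13.4 and -12.2 points. With Lig4 the members that were not G-rich had microhomology in 35.3% to 42.5% against 11.2% to 13.0% on chromosome 6, and insertions in 21.4% to 32.5% against 69.9% to 71.4%. In D1 with Ku70 microhomology stood at 65.6% to 76.7% against 34.4% to 48.2% on chromosome 6. In D2 with Ku70 it stood at 46.7% to 87.5%, over 6 to 30 rows a library, against 31.25% to 40.9%. In D1 and D2 Lig4-/-Ku70-/- it stood at 24.8% to 31.7% against 23.1% to 27.5%. Lig4-/- libraries went both ways, with 52.9%, 50.0% and 88.9% over 17, 10 and 9 rows against 79.1%, 71.4% and 74.5%. Against the 3 excluded sites, in the 11 libraries with 10 or more rows of each kind, members had the higher microhomology share in 11 of 11 (9.44 points) and the lower insertion share in 11 of 11 (-29.3 points), each with an exact permutation p = 0.000977, the smallest that 11 libraries allow, and an adjusted p = 0.019. All rows at those sites were G-rich, and the members are a mixture of both kinds. G-rich members had microhomology in 3.34% and insertions in 89.4%, and the other members had them in 36.3% and 5.40%. Rows that are not G-rich thus move both shares of the members in the direction seen. Neither test can therefore tell a property of the excluded sites from this mixture.

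The bait end differed between groups as well. In members that were not G-rich, the median number of bait bases lost from the commonest end, over the pooled rows of each group, was 9 in D1 and 10.5 in D2 Lig4-/-Ku70-/-, 3 and 3.5 with Ku70, 2.5 in Lig4-/- and 0 with Lig4. By library it was 7, 11 and 8 in D1, 9, 11 and 11 in D2, and with Ku70 5, 4 and 0 and 6, 4 and 2. It was 4, 4.5 and 0 in Lig4-/- and -0.5, 0.5 and 0 with Lig4. Single rows spread widely, with quartiles of 3 and 15 in D1 and -2 and 17 in D1 with Ku70. The difference was not tested. On chromosome 6 the pooled median was 12, 8, 11, 8, 6 and 0 in the same order of groups. In G-rich members it was 14 and 11 in D1 and D2 and 15 and 11 with Ku70. Microhomology is counted to the bait in this measure, so a longer overlap gives a smaller loss.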

How the data were processed

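The lists were deposited by the authors as 1 row per read, made with JoinT-seq per the labels, with Bowtie2 and mm10 named in the submitters' processing notes (no version given there); the authors scaled each ZFN library to 600000 raw reads per the labels. Their columns hold positions on the genome and on the read and are no normalized unit. Members were taken by chromosome and distance from the 3 sites; the members and the gene lists were chosen with earlier results of these data known. Overlap is the number of read bases aligned to both bait and prey, and a negative overlap means inserted bases. Genes are RefSeq spans of GRCm38.p6 (mm10); exons and introns were not used here. In the tests and their alternatives libraries with under 10 members gave no share; the untested values without G-rich rows in the report use all 3 libraries. Sites and genes are named by the number of libraries, then distinct junctions, then rows, 10 of each. Tests are two-sided exact permutation or sign-flip tests over libraries, adjusted together over 39 tests (Python 3.11.15, scipy 1.17.1), tested on simulated data. No read name occurred in 2 libraries, and replicates shared at most 5 distinct member junctions, so all libraries were kept. Intervals and limits for a count of 0 (3 rows) cover counting error only; reads carry no molecular identifiers. The replicate numbers were checked as a pairing by correlating same-numbered libraries' deviations in members per chromosome: every correlation exceeded 0.1 only for D1 Lig4-/-Ku70-/- with D Lig4-/- (0.364 to 0.534), where the block changed no call. Alternatives that left out G-rich rows, or the run of D2 replicate 1, were chosen after seeing the data. One gene of the lists is not reported here.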

Additional observations from a re-analysis of the deposited data

Results flagged for a closer look

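Rows with G-rich prey also stood in Cas9 lists, which enter none of the tests between groups: they made up 2.23% of the rows off the bait chromosome in the 9 Cas9 libraries read on a Nextseq, above the 0.229% in the 45 read on a Miseq. In single Nextseq libraries the share ran from 1.21% to 44.3% (median 2.93%), which is 4.83 to 11 (median 6.67) such rows per 100000 raw reads. In single Miseq libraries it ran from 0% to 5.56% (median 0.113%), which is 0 to 2.20 (median 0.252) per 100000. The shares of both instruments thus overlapped, while the numbers per 100000 did not.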

How the results depend on the processing

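Of 35 comparisons between groups and 4 within libraries, leaving out G-rich rows moved most. It turned the microhomology difference with Ku70 to 38.7 in D2 and 41.1 points on average, the member share of D2 against D to -1.46, the insertion share of D1 and D2 against D to -2.07 and -4.26, the gene share with Ku70 to -8.26 in D1, 5.40 in D2 and -13.7 in D1 minus D2, and members minus chromosome 6 to 13.4 (microhomology) and -12.2 (insertion); the mean Ku70 difference became -2.53 for abundance and 1.01 for insertion. The limit on G was chosen from the data, so these are values, not calls, and they leave out libraries with under 10 members, unlike those in the report. Counting each distinct junction once gave 3.58 for the member share of D1 against D and 1.21 for microhomology against chromosome 6. Leaving out the 262 recurrent sites gave 9.87 (mean Ku70 microhomology), -1.04 (member share, D2 against D), and 1.25 and 10.9 (microhomology and insertion against chromosome 6). An overlap minimum of 1 bp gave -10.0 (mean Ku70) and -5.67 (D1), and 4 bp gave 0.97 (mean Ku70) and 10.3 (against chromosome 6, past the threshold). Protein-coding genes alone gave gene shares of 2.57 (mean Ku70), 7.78 (D1 minus D2) and -3.56 (Lig4 add-back). Without the run of D2 replicate 1 the mean Ku70 abundance difference passed (-0.74) and the member share of D2 against D was -0.59. The replicate block kept every value and took the mean Ku70 abundance difference of -0.61 past the threshold (exact sign-flip permutation p = 0.0312, the smallest that 6 pairs allow). It changed no other call. The causes of these changes were not tested, beyond the fewer rows or libraries counted.

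By group of 3 libraries, which cannot pass the threshold, members minus chromosome 6 gave for microhomology -15.0 (D Lig4-/-), 23.5 (with Lig4), -12.3 (D1), -23.3 (D1 with Ku70), -9.16 (D2) and -26.6 (D2 with Ku70), and for insertion -1.73, -35.3, 48.3, 66.8, 46.6 and 61.0 in that order. Members minus the 3 sites gave 14.4, 16.4, 5.57 and 3.73 for microhomology and -45.9, -18.5, -37.0 and -12.3 for insertion in D1, D1 with Ku70, D2 and D2 with Ku70.

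Leaving out 1 library at a time gave these ranges: mean Ku70 abundance -1.18 (without replicate 1 of D2 with Ku70, past the threshold) to -0.16, microhomology -3.38 to 0.047; D1 minus D2 abundance -0.81 to 1.23, insertion -16.9 to 2.18, gene share 2.44 to 8.01 (without replicate 2 of D1 with Ku70, past the threshold); D1 Ku70 gene share -1.77 to 3.40, microhomology -0.16 to 4.50; D2 Ku70 abundance -1.80 to 0.24; member share of D1 against D -1.68 to 0.23 and of D2 against D -0.59 to 2.54. Shares against D Lig4-/- have no value once overlaps of 8 bp or more are left out, since 2 of its libraries then hold under 10 members. The D Lig4-/- libraries, at 10 to 18 members, set the limit of depth.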
